A study of Homo sapiens with 18 samples.

Results

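DNA replication genes encode the proteins that copy the genome in S phase. The 48 genes described here cover origin licensing, the replicative helicase, origin firing and fork protection, the DNA polymerases and primase, the sliding clamp and its loader, single-strand binding and flap processing, chromatin assembly behind the fork, and 3 E2F transcription factors. They were taken by gene symbol from the platform's probe table, with 1 probe set per gene, the one with the highest mean signal over all 18 arrays. All 48 symbols were found among the 18132 genes with a probe set of their own, and the rule for probe sets used signal level, not change.

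Replication starts in G1, when the origin recognition complex, CDC6 and CDT1 load the MCM ring on DNA, and proceeds in S phase, when the CDC7-DBF4 kinase and CDC45 and GINS turn that ring into an active helicase. Most of these genes are transcribed in late G1 under E2F factors, which the retinoblastoma protein holds back until cyclin D and cyclin E kinases phosphorylate it. In colorectal cells with mutant BRAF, signalling through RAF, MEK and ERK is a known driver of cyclin D1 and so of entry into S phase.

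Expression was measured on 18 Affymetrix arrays with RNA of human colorectal cancer cells, in 6 groups of 3 arrays, 4 of the line WiDr and 2 of the line HT29. WiDr, which is regarded as a derivative of HT29, is known like HT29 for mutant BRAF. WiDr and HT29 cells received vehicle or AZ628, a RAF kinase inhibitor, at a dose and for a time that the labels do not give. Further WiDr cells were transduced with a control shRNA or with an shRNA against IKKα, a kinase of NF-κB signalling encoded by CHUK. The shRNA sequences, the number of clones and the time after transduction are likewise not given. The inhibited arrays of the second line are written HT28 in the design text and were read as HT29 from the sample labels. Whether arrays of the same group hold separate cultures is not stated, and each p-value therefore reflects array-to-array spread alone, which may be technical.

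Values are log2 signals, so a difference of 1 equals a 2-fold change. Arrays of 1 group correlated at 0.997 to 0.999 over all genes, arrays of different groups at 0.956 to 0.996, and no array stood apart. CHUK had log2 signals of 9.68, 9.45 and 9.78 with control shRNA and 7.68, 7.23 and 7.65 with IKKα shRNA, without overlap and 4.33-fold lower (limma, adjusted p = 4.11e-10). DUSP6, a phosphatase induced by ERK, fell from a mean of 11.1 to 6.91 with AZ628 in WiDr and from 11.2 to 6.50 in HT29. Of 12 colorectal epithelium markers, 9 lay above the median gene, among them EPCAM at 13.3. Of the markers of other cell types, 0 of 10 fibroblast, 2 of 8 blood cell (LYZ and CD68) and 1 of 8 endothelial markers (ESAM) lay above it.

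With AZ628, expression of nearly all of the 48 listed replication genes fell in both lines. The list was chosen with earlier results of these data known, and other replication genes are given further below. In WiDr, 46 of 48 genes fell, where 21.1% of all 18132 genes did, 32 of them at least 2-fold (4.35% of all genes), and none rose (23.4% of all genes). The median change was -1.32, against 0.00 over all genes, and ranged from -2.48 to -0.11. In HT29, all 48 fell (21% of all genes, and 22.5% rose), 38 at least 2-fold (4% of all genes), with a median of -1.43 against 0.01 over all genes and a range from -2.88 to -0.27. At the median gene 40.2% of the vehicle signal was left in WiDr and 37.0% in HT29. On the single arrays, the median of the 48 genes lay between 9.28 and 9.38 with vehicle and between 8.06 and 8.15 with AZ628 in WiDr, and between 9.23 and 9.27 against 7.69 and 7.76 in HT29. The AZ628 arrays lay wholly below the vehicle arrays for 47 genes in WiDr (24.6% of all genes) and for 48 in HT29 (23.5%). In bulk samples, fewer cells of a type, such as cells in S phase, and less RNA per cell cannot be told apart. Of 10 fibroblast markers, LUM (1.25) and ACTA2 (0.42) rose and COL1A2 (-0.23) fell in WiDr, and LUM (1.77) rose and FAP (-0.80) fell in HT29, with list medians of 0.03 and -0.01. Of 8 blood cell markers, CD68 (0.72 and 0.50) rose and CD14 (-0.96 and -0.46) fell in WiDr and HT29. Of 8 endothelial markers, TEK (0.35) rose in WiDr and ESAM (-0.49) fell in HT29. Of 12 epithelium markers, 4 rose and 5 fell in WiDr, and 4 rose and 3 fell in HT29. Their part in the result was not tested.

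**Figure D1:**
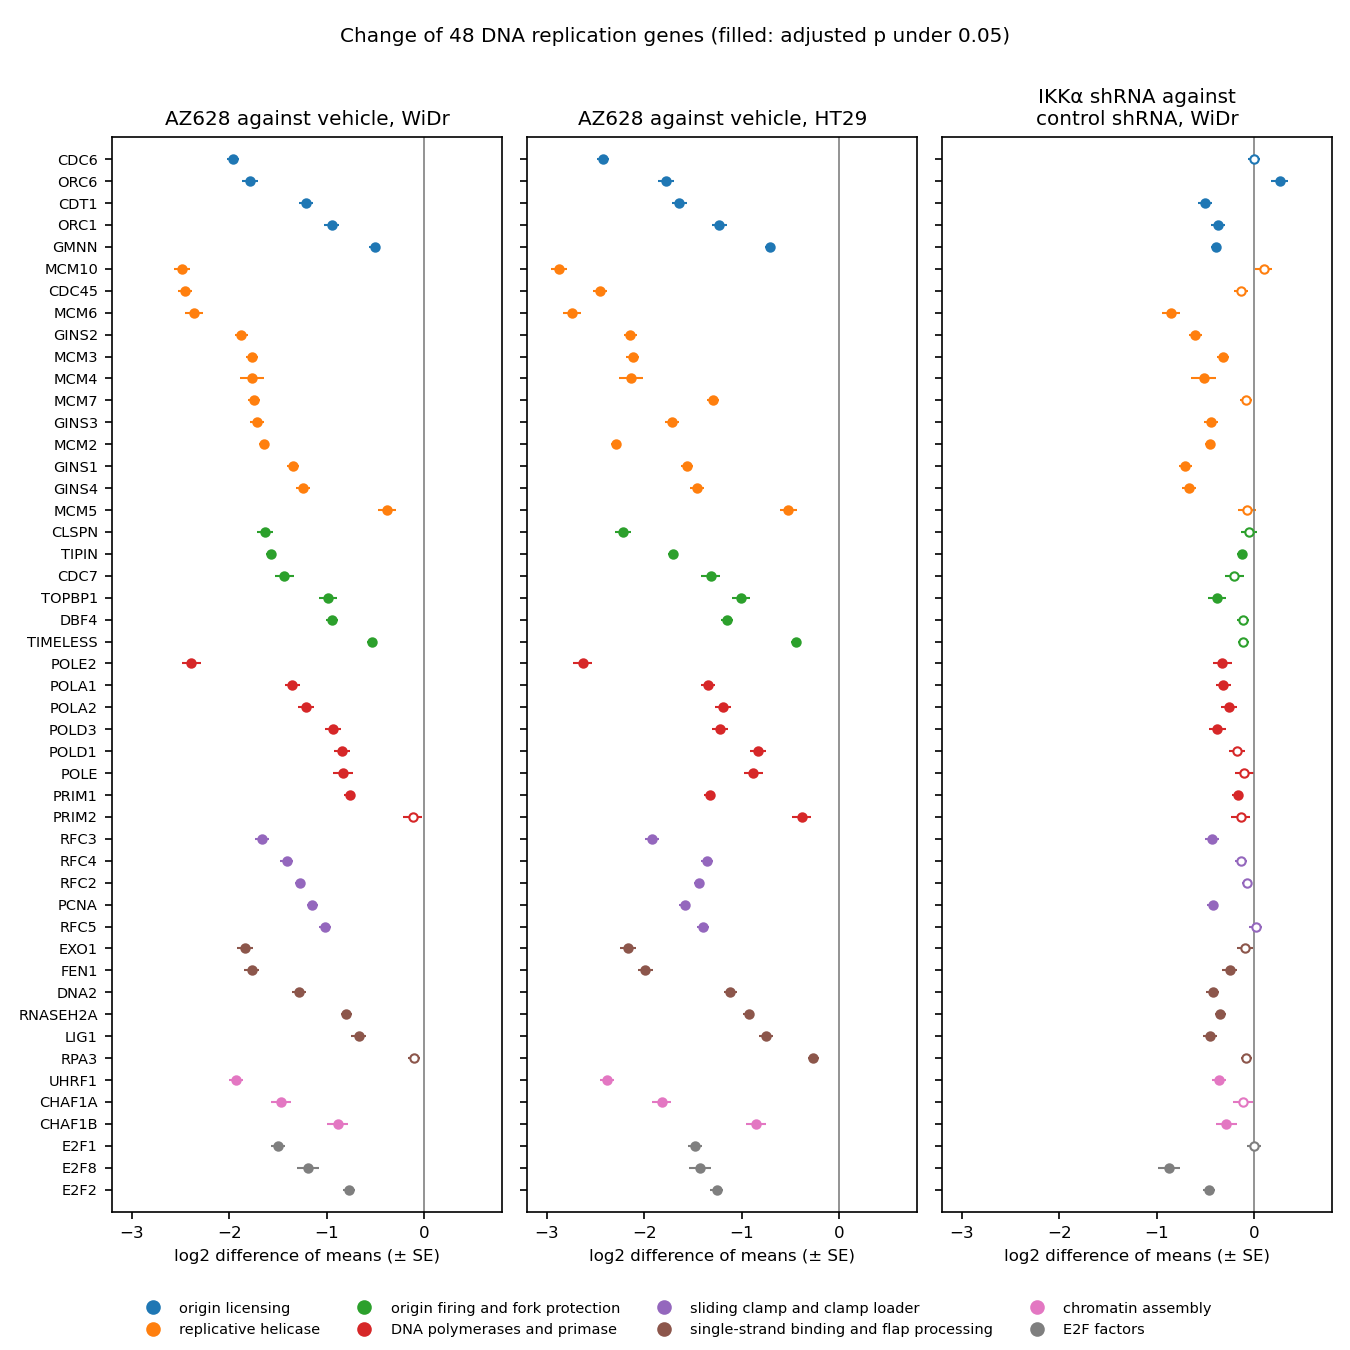
Log2 difference of group means (± SE) for the 48 genes, 1 row per gene, coloured by subcomplex, for AZ628 against vehicle in WiDr and in HT29 and for IKKα shRNA against control shRNA in WiDr; filled points have an adjusted p under 0.05. With AZ628 all points but PRIM2 and RPA3 in WiDr are filled and left of 0, and with IKKα shRNA 28 points are filled and left of 0 and 1, ORC6, to the right.

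As a description, the promoters of the 48 genes were searched for letters known from E2F sites. RefSeq promoter windows (GRCh38.p14, 250 bases before to 50 bases after each start) were matched for 41 of the 48 genes. Some genes have several starts, so there were 54 windows, and a gene counted if any of its windows matched. MCM4, MCM5, GINS4, POLD3, RPA3, DNA2 and E2F8 had no entry in that table. The letters searched were TTTCGCGC, TTTGGCGC, TTTCCCGC and TTTGCCGC on both strands, and overlapping matches were counted separately. They were found in 25 of the 41 genes (61%) and in 5 of 27 other replication genes with a window (18.5%). Of 15842 protein-coding genes 5.4% held them, and of all 27305 genes with a window 3.99%. Of 35 matches in the 41 genes, 28 lay within 100 bases of the start. The 100 bases before the start are shown 5′ to 3′ on the strand of the gene, with the matches in capitals, for 7 genes with a match from several subcomplexes and for MCM10, which fell furthest with AZ628 and has none.
MCM6: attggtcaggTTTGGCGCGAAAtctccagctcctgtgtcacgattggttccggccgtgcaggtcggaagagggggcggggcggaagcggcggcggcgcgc
GINS2: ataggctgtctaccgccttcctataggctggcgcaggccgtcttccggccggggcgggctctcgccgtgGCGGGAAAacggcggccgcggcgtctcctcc
TIPIN: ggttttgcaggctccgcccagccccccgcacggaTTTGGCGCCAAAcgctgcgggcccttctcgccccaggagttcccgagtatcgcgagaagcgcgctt
CDT1: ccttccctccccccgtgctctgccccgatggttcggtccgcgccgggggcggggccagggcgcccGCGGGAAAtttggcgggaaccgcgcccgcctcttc
E2F1: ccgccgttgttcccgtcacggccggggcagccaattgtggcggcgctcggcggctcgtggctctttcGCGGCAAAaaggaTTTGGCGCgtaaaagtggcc
PCNA: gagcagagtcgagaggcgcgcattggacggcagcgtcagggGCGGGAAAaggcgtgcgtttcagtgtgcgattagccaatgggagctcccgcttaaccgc
GMNN: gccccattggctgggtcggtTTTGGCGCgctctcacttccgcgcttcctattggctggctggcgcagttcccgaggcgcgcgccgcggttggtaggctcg
MCM10: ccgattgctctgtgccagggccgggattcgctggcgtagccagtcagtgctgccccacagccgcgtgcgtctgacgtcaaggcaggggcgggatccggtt
TIPIN, PCNA and GMNN have 2 windows each, and the window shown is the one with most matches in these 100 bases. In MCM6 and TIPIN the capitals are 2 overlapping matches on opposite strands. GINS2, CDT1 and PCNA carry the same match, GCGGGAAA, the reverse complement of TTTCCCGC. The stretches lie at chr2:135876444-135876543 (MCM6, minus strand), chr16:85688955-85689054 (GINS2, minus strand), chr15:66356686-66356785 (TIPIN, minus strand), chr16:88803689-88803788 (CDT1, plus strand), chr20:33686386-33686485 (E2F1, minus strand), chr20:5126623-5126722 (PCNA, minus strand), chr6:24775313-24775412 (GMNN, plus strand) and chr10:13161458-13161557 (MCM10, plus strand). A match describes letters only, and binding was not measured.

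**Figure D2:**
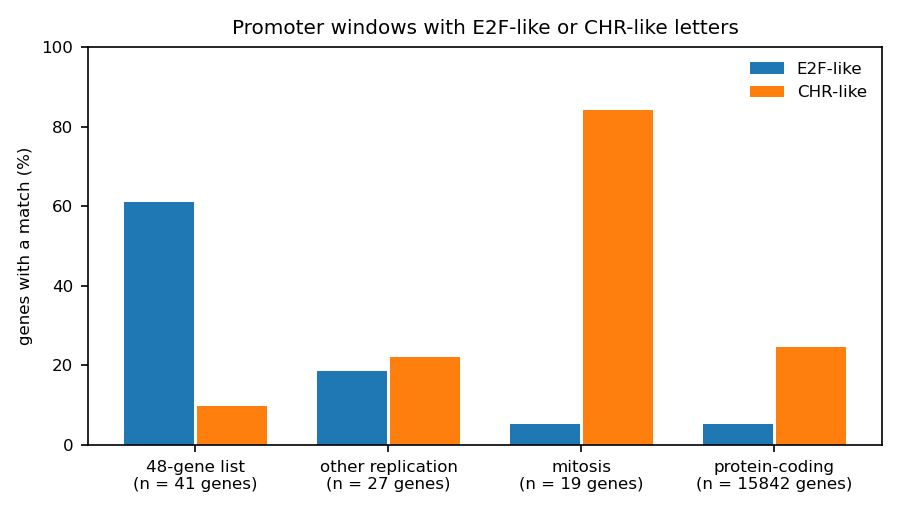
Percent of genes whose promoter window holds E2F-like letters (blue) or CHR-like letters (orange, TTTGAA or TTTAAA on either strand) for 41 replication genes of the list, 27 other replication genes, 19 mitosis genes and 15842 protein-coding genes. E2F-like letters were found in 61% of the 41 genes, 18.5% of the other replication genes and 5.26% of the mitosis genes. CHR-like letters were found in 9.76%, 22.2% and 84.2%.

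The 25 genes with these letters had a median change of -1.58 with AZ628 in WiDr and -1.64 in HT29, the 16 genes with a window but no match -0.98 and -1.34, and the 7 without a window -1.19 and -1.22. The ranges overlapped almost entirely. Genes with a match ran from -2.39 to -0.51 in WiDr, and those without from -2.48 to -0.12. MCM10 and CDC45, which fell most in WiDr, are without a match, and GMNN, with one, had the smallest fall among those with a match.

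Origin licensing loads the MCM ring, and all 5 of its genes fell in both lines (median -1.21 in WiDr and -1.64 in HT29). CDC6, the ATPase that brings the ring to the origin, had log2 signals of 10.31, 10.21 and 10.27 with vehicle and 8.29, 8.28 and 8.34 with AZ628 in WiDr. In HT29 the signals were 10.55, 10.68 and 10.54 with vehicle and 8.28, 8.06 and 8.16 with AZ628. Both lines thus showed AZ628 arrays far below all vehicle arrays, by -1.96 ± 0.062 in WiDr and -2.42 ± 0.062 in HT29 (log2 ± SE, limma, adjusted p = 5.25e-14 and 9.92e-15). ORC6, the smallest subunit of the origin recognition complex, fell by 1.78 in both lines. CDT1, the partner of CDC6 in loading, fell by 1.21 in WiDr and 1.64 in HT29. Over all its probe sets, changes ran from -1.21 to -0.26 in WiDr and from -1.64 to -0.765 in HT29. ORC1, the subunit that cycles with the cell, fell by 0.95 and 1.23. Geminin (GMNN), the inhibitor of CDT1, had the smallest fall of the 5 genes, 0.51 in WiDr and 0.71 in HT29.

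The replicative helicase consists of the MCM2 to MCM7 ring with CDC45 and the 4 GINS subunits, and MCM10 activates it. It held the largest falls of any subcomplex, with medians of -1.76 in WiDr and -2.13 in HT29, and all 12 genes fell in both lines. MCM10 had log2 signals of 8.94, 8.78 and 8.86 with vehicle and 6.34, 6.36 and 6.42 with AZ628 in WiDr, a change of -2.48 ± 0.085 or 5.60-fold lower (adjusted p = 1.43e-13). In HT29 it had 9.08, 9.18 and 9.05 with vehicle and 6.44, 6.20 and 6.04 with AZ628, a change of -2.88 ± 0.085 or 7.34-fold lower (adjusted p = 4.24e-14). Its AZ628 arrays lay more than 2 log2 units under every vehicle array in both lines.

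CDC45, which joins the ring when the origin fires, went from 9.87, 9.77 and 9.84 to 7.48, 7.38 and 7.24 in WiDr. In HT29 it went from 9.70, 9.67 and 9.71 to 7.27, 7.21 and 7.24. The groups did not overlap, and the falls of 2.46 and 2.45 gave the smallest difference between the lines of all 48 genes (0.00 ± 0.098, adjusted p = 0.994). MCM6 went from 10.15, 10.10 and 10.22 to 7.74, 7.84 and 7.80 in WiDr and from 10.24, 10.45 and 10.48 to 7.70, 7.62 and 7.62 in HT29. These arrays also did not overlap, with falls of 2.36 and 2.74. The ring subunits MCM2, MCM3, MCM4 and MCM7 fell by 1.65 to 1.77 in WiDr and by 1.30 to 2.29 in HT29. Among the GINS subunits GINS2 fell furthest (1.88 and 2.14), followed by GINS3 (1.72 and 1.71), GINS1 (1.35 and 1.56) and GINS4 (1.25 and 1.46). Over all probe sets of GINS1, changes ran from -1.35 to -0.88 in WiDr and from -1.56 to -0.37 in HT29.

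MCM5 had the smallest fall of the helicase, 0.38 in WiDr and 0.52 in HT29. Its only probe set averaged 5.01 at the percentile 28.9 of all genes. Its arrays gave 5.19, 5.22 and 5.34 with vehicle and 4.79, 4.82 and 4.98 with AZ628 in WiDr, without overlap (adjusted p = 0.0018, and 0.0781 with arrays centred on housekeeping genes). Of GINS4, the probe set not marked for cross-hybridising probes was dimmer and differed by -0.29 in WiDr (adjusted p = 0.225) and -0.16 in HT29 (adjusted p = 0.55).

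Among the genes of origin firing and fork protection all 6 fell in both lines (medians -1.21 and -1.24). CLSPN, the mediator of checkpoint signals at the fork, fell by 1.64 in WiDr and 2.22 in HT29. Its AZ628 signals, 4.38 to 4.73 in WiDr and 4.39 to 4.49 in HT29, were low. The medians of the 10 fibroblast markers on these arrays were 4.25 to 4.52. A fall to so low a signal may be cut short, which was not tested. The other, dimmer probe set of CLSPN changed by -0.59 and -0.55. TIPIN, which protects stalled forks as a pair with TIMELESS, fell by 1.58 and 1.71, while TIMELESS fell by 0.53 and 0.45. TIPIN signals were 9.39, 9.38 and 9.47 with vehicle and 7.85, 7.82 and 7.85 with AZ628 in WiDr, and TIMELESS signals 9.28, 9.30 and 9.31 against 8.80, 8.71 and 8.78. Both genes had AZ628 arrays clear of the vehicle arrays, but at different distances. The kinase CDC7 fell by 1.43 and 1.32 and its activator DBF4 by 0.95 and 1.15. Over all probe sets of CDC7, changes ran from -1.435 to -0.505 in WiDr and from -1.316 to -0.653 in HT29. TOPBP1, which helps CDC45 and GINS onto the ring, fell by 0.99 and 1.01.

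The polymerases and primase had the lowest median fall in WiDr (-0.89, and -1.21 in HT29), with a wide range. POLE2, the accessory subunit of the leading-strand polymerase, stood at 1 end with log2 signals of 9.38, 9.12 and 9.22 with vehicle and 6.88, 7.04 and 6.62 with AZ628 in WiDr. In HT29 it gave 9.04, 9.16 and 9.11 with vehicle and 6.62, 6.47 and 6.32 with AZ628. The falls of 2.39 and 2.63 were without overlap of arrays (adjusted p = 1.08e-12 and 5.26e-13). POLE, the catalytic subunit of that polymerase, fell by 0.83 and 0.88. POLD1 and POLD3, catalytic and accessory subunits of the lagging-strand polymerase, fell by 0.85 and 0.94 in WiDr and by 0.84 and 1.22 in HT29. POLA1 and POLA2, which extend the primer, fell by 1.35 and 1.21 in WiDr and by 1.35 and 1.19 in HT29.

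The primase subunits differed from each other. PRIM1, the catalytic subunit, fell by 0.76 in WiDr and 1.33 in HT29. PRIM2, its regulatory partner, gave 8.19, 7.83 and 8.09 with vehicle and 7.86, 8.05 and 7.85 with AZ628 in WiDr, overlapping values that differed by -0.12 ± 0.098 (adjusted p = 0.384). In HT29 it gave 7.80, 7.99 and 7.90 against 7.54, 7.45 and 7.55, without overlap and 0.38 lower (adjusted p = 0.00355, and 0.092 centred on housekeeping genes). A second, dimmer probe set of PRIM2 fell by 0.50 in WiDr and 0.81 in HT29, so the result for this gene depends on the probe set read.

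In the sliding clamp and its loader all 5 genes fell, by the brightest probe set of each, at least 2-fold in both lines (medians -1.27 and -1.44). PCNA, the clamp, had signals of 13.09, 12.97 and 13.05 with vehicle and 11.90, 11.90 and 11.87 with AZ628 in WiDr, 1.15 lower. In HT29 it had 12.54, 12.72 and 12.64 with vehicle and 11.12, 10.97 and 11.05 with AZ628, 1.59 lower. All AZ628 arrays lay at least 1 log2 unit under the vehicle arrays. The loader subunits RFC2, RFC3, RFC4 and RFC5 fell by 1.27, 1.67, 1.41 and 1.02 in WiDr and by 1.44, 1.92, 1.36 and 1.40 in HT29. Other probe sets did not all follow. The dim second one of PCNA changed by -0.66 and -0.40, the least changed of RFC3 by -0.05 and -0.03, of RFC4 by 0.01 and 0.03, and of RFC5, which is not dim, by -0.18 and -0.37. Another probe set of RFC3 changed by -1.80 and -2.11, and 2 others of RFC5 by -1.19 and -1.27 in HT29.

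In single-strand binding and flap processing the median fell by 1.04 in WiDr and 1.02 in HT29. EXO1, an exonuclease of repair and fork processing, fell by 1.84 and 2.17, and FEN1, the flap endonuclease of lagging-strand maturation, by 1.77 and 1.99. DNA2, a nuclease for long flaps, fell by 1.29 and 1.12, RNASEH2A, which removes RNA from primers, by 0.80 and 0.93, and LIG1, the ligase that joins the fragments, by 0.67 and 0.75. Over the 6 probe sets of LIG1, changes ran from -0.75 to 0.01 in WiDr and from -0.78 to -0.135 in HT29. RPA3, the smallest subunit of the single-strand binding complex, changed least. It gave 10.45, 10.45 and 10.45 with vehicle and 10.37, 10.32 and 10.34 with AZ628 in WiDr, where the arrays did not overlap and differed by -0.11 ± 0.059 (adjusted p = 0.161). In HT29 the values 10.20, 10.23 and 10.18 and 9.94, 10.03 and 9.85 differed by -0.27 ± 0.059 (adjusted p = 0.00109, and 0.436 centred on housekeeping genes).

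Chromatin assembly and the E2F factors fell as well. UHRF1, which reads hemimethylated DNA behind the fork and brings the maintenance methyltransferase to it, fell by 1.93 in WiDr and 2.38 in HT29. Of the other probe sets of UHRF1, 1 changed by -1.47 and -1.86 and a dim one by 0.04 and 0.15. CHAF1A and CHAF1B, the large and middle subunits of the histone chaperone CAF-1, fell by 1.47 and 0.89 in WiDr and by 1.82 and 0.85 in HT29. Over all probe sets, CHAF1A ran from -1.53 to -0.49 in WiDr and from -1.82 to -0.59 in HT29. CHAF1B ran from -0.89 to -0.39 and from -0.85 to -0.16. The activator E2F1 had 8.03, 7.81 and 7.84 with vehicle and 6.24, 6.41 and 6.53 with AZ628 in WiDr, and 7.75, 7.82 and 7.81 against 6.26, 6.36 and 6.32 in HT29. These groups lay apart by 1.50 and 1.48. E2F8, an atypical family member that represses, fell by 1.19 and 1.43. E2F2, a second activator, fell by 0.77 and 1.26, but its other probe set, of lower signal, differed by -0.10 in WiDr (adjusted p = 0.412 among probe sets free of cross-hybridising probes) and rose by 0.24 in HT29 (adjusted p = 0.0383).

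**Figure D3:**
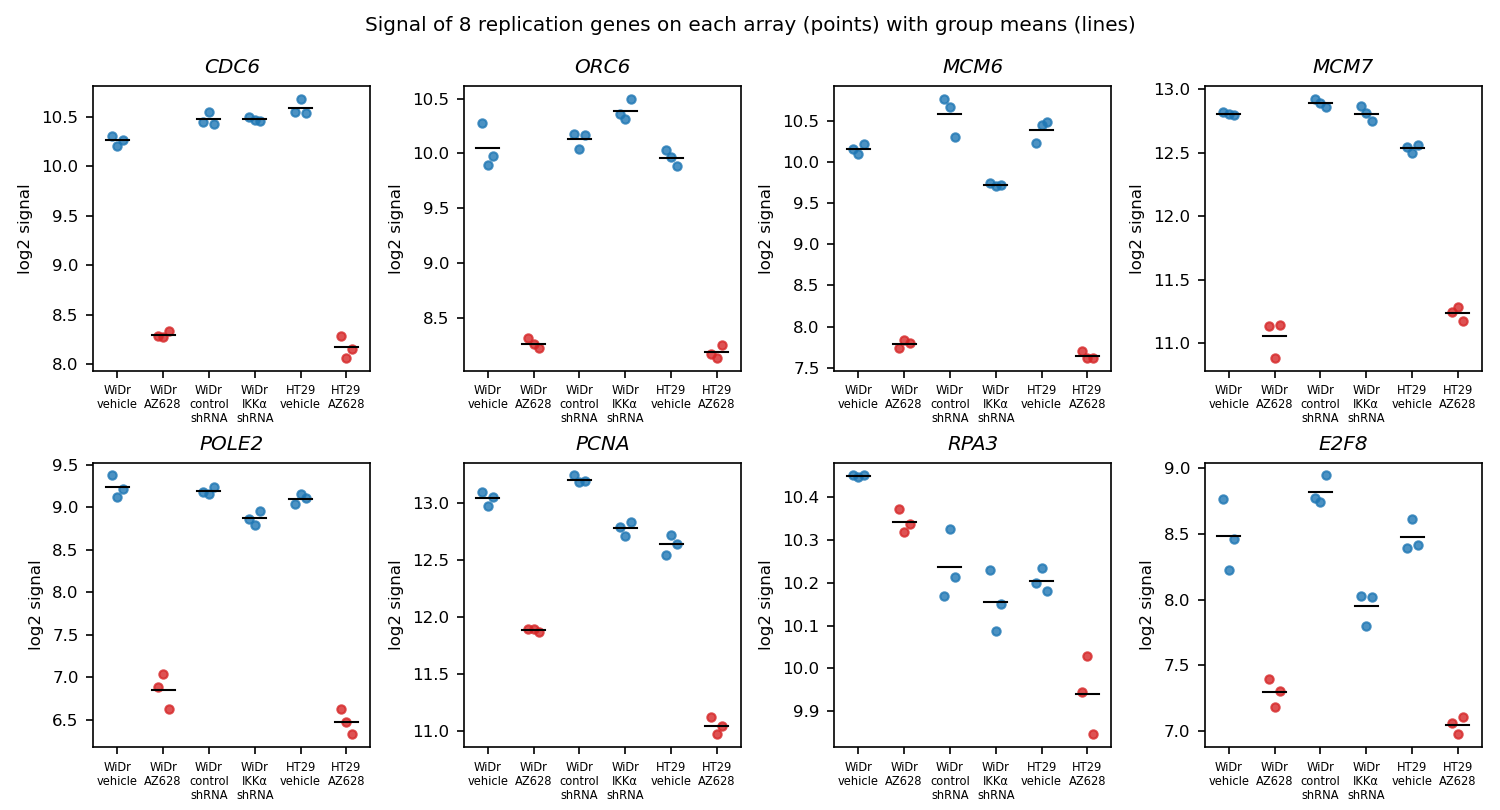
Log2 signal on each of the 18 arrays (points, blue without and red with AZ628) and group means (lines) for CDC6, ORC6, MCM6, MCM7, POLE2, PCNA, RPA3 and E2F8, each on its own axis. The AZ628 arrays are the lowest of each panel for all but RPA3, and with IKKα shRNA the points of MCM6 and E2F8 drop below those of control shRNA while those of ORC6 lie above them.

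Over the 48 genes the changes with AZ628 in WiDr and HT29, which share no arrays, correlated with r = 0.94 (Pearson) and rho = 0.92 (Spearman), as a description. The test of the difference between the lines asked which genes responded unequally. Of the 48, 10 fell further in HT29 (5.13% of all genes were called in that direction) and 1, MCM7, fell further in WiDr (4.06% of all genes). The median difference was -0.21 against -0.01 over all genes. The 10 genes came from 7 of the 8 subcomplexes, all but single-strand binding and flap processing. They were MCM2 (-0.65 ± 0.073), CLSPN (-0.58 ± 0.12), PRIM1 (-0.57 ± 0.081), E2F2 (-0.49 ± 0.089), CDC6 (-0.46 ± 0.088), UHRF1 (-0.45 ± 0.10), PCNA (-0.44 ± 0.083), CDT1 (-0.43 ± 0.10), RFC5 (-0.38 ± 0.089) and MCM3 (-0.35 ± 0.088), as log2 differences of effects ± SE.

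MCM2 had log2 signals of 11.00, 11.01 and 10.99 with vehicle and 9.42, 9.30 and 9.34 with AZ628 in WiDr. In HT29 it had 11.10, 11.15 and 11.06 with vehicle and 8.87, 8.81 and 8.74 with AZ628. The vehicle arrays of both lines were close, and the HT29 arrays with AZ628 lay below the WiDr arrays with AZ628 (adjusted p of the difference = 1.56e-05). PRIM1 had 9.79, 9.70 and 9.71 with vehicle against 8.96, 8.99 and 8.96 with AZ628 in WiDr, and 9.55, 9.60 and 9.58 against 8.31, 8.19 and 8.23 in HT29, again lowest in HT29 with AZ628 (adjusted p = 0.00018). MCM7 ran the other way, with 12.82, 12.80 and 12.79 with vehicle against 11.13, 10.89 and 11.15 with AZ628 in WiDr, and 12.54, 12.50 and 12.56 against 11.25, 11.29 and 11.18 in HT29. It was lower in HT29 with vehicle and higher there with AZ628, a difference of 0.45 ± 0.091 (adjusted p = 0.00335), and all 4 of its probe sets differed in that direction, by 0.29 to 0.46.

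Among the regulators of licensing and the fork, CDT1 had 9.44, 9.23 and 9.24 with vehicle against 8.01, 8.13 and 8.15 with AZ628 in WiDr, and 9.28, 9.33 and 9.24 against 7.54, 7.69 and 7.69 in HT29. CLSPN had 6.27, 6.20 and 6.29 with vehicle against 4.38, 4.73 and 4.73 with AZ628 in WiDr, and 6.63, 6.62 and 6.71 against 4.49, 4.39 and 4.41 in HT29. In CDT1 the vehicle arrays of the lines overlapped and the AZ628 arrays were lower in HT29. In CLSPN the HT29 vehicle arrays were higher and the AZ628 arrays of the lines overlapped, at signals near the fibroblast marker medians. MCM3 had 10.30, 10.39 and 10.44 with vehicle against 8.59, 8.62 and 8.60 with AZ628 in WiDr, and 10.80, 10.63 and 10.76 against 8.55, 8.67 and 8.61 in HT29, and E2F2 6.93, 6.997 and 6.96 with vehicle against 6.14, 6.30 and 6.15 with AZ628 in WiDr, and 7.32, 7.49 and 7.30 against 6.17, 6.03 and 6.14 in HT29. Both started higher in HT29 and overlapped between the lines with AZ628. RFC5 had 10.27, 10.05 and 10.24 with vehicle against 9.21, 9.17 and 9.13 with AZ628 in WiDr, and 10.15, 10.22 and 10.15 against 8.78, 8.70 and 8.84 in HT29. UHRF1 had 10.29, 9.98 and 10.17 with vehicle against 8.21, 8.29 and 8.15 with AZ628 in WiDr, and 10.05, 10.14 and 10.01 against 7.73, 7.64 and 7.69 in HT29. These 2 genes overlapped between the lines with vehicle and were lower in HT29 with AZ628.

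The calls for MCM2, PRIM1 and MCM7 held under every alternative at the same threshold. Averaging a gene's probe sets ended those for CLSPN, E2F2, PCNA and UHRF1, centring on housekeeping genes those for CDC6, CDT1, MCM3, RFC5 and UHRF1, and leaving out cross-hybridising probe sets or HT29 AZ628 replicate 1 that for MCM3 (adjusted p = 0.093 and 0.0508). Leaving out cross-hybridising probe sets also turned the difference for E2F2 to 0.34 (adjusted p = 0.121).

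**Figure D4:**
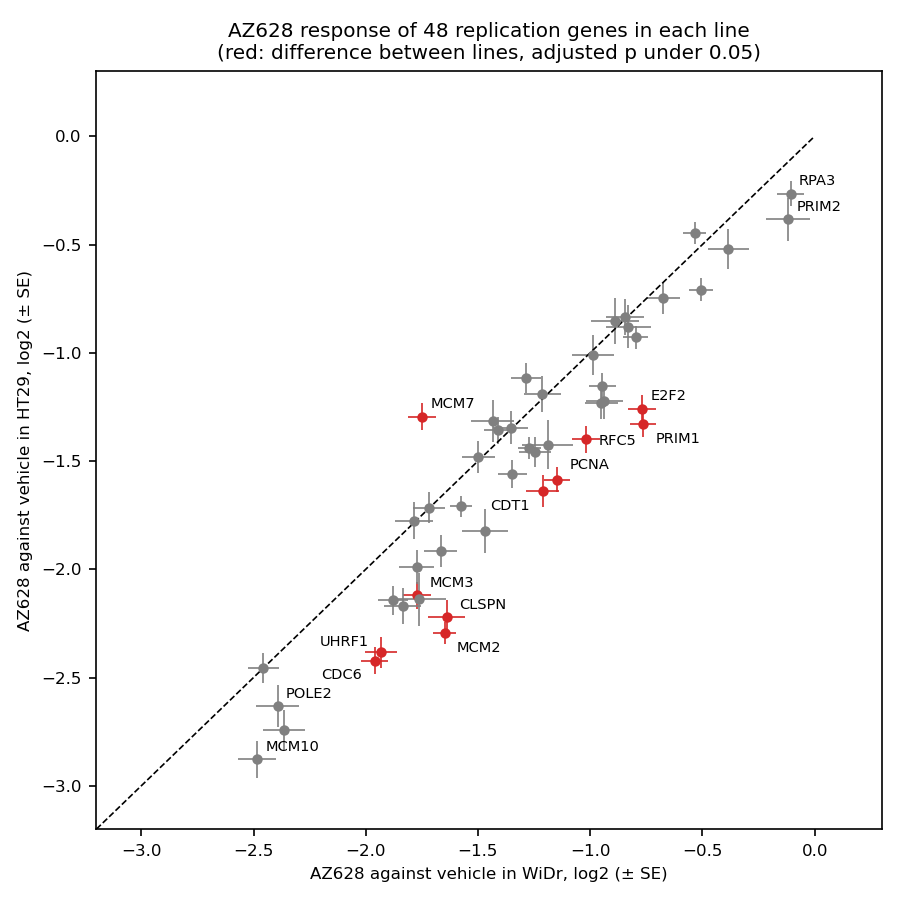
Log2 change with AZ628 (± SE) of the 48 genes in WiDr (x axis) and HT29 (y axis), with the line of equal change dashed; red points passed the test of the difference between the lines. The 10 red points below the line fell further in HT29, and MCM7, the red point above it, fell further in WiDr.

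Knockdown of IKKα gave smaller and mixed changes. Against control shRNA, 28 of 48 genes fell (19% of all genes) and 1 rose, ORC6 (15.9% of all genes). The median was -0.27, against 0.02 over all genes, with a range from -0.87 to 0.26. No gene changed 2-fold (2.25% of all genes fell and 1.52% rose that far), and the IKKα shRNA arrays lay wholly below the control shRNA arrays for 31 genes (23.4% of all genes) and wholly above for 1 (23.3%). The array medians of the 48 genes ran from 9.26 to 9.35 with control shRNA and from 9.10 to 9.18 with IKKα shRNA. Beside this, LUM (2.84) and COL3A1 (0.50) rose and ACTA2 (-0.92) fell among 10 fibroblast markers (list median 0.05), and TEK (1.20) and ESAM (0.92) rose among 8 endothelial markers (0.09). CD14 (-1.25) fell among 8 blood cell markers (0.01). Of 12 epithelium markers 5 fell, LGALS4 (-1.71) and VIL1 (-1.16) most, and 7 did not pass (list median -0.23). Their part in the result was not tested.

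In the helicase 8 of 12 genes fell (median -0.45). E2F8 had the largest fall of all 48, with log2 signals of 8.77, 8.74 and 8.95 with control shRNA and 8.03, 7.80 and 8.02 with IKKα shRNA (-0.87 ± 0.11, adjusted p = 7.41e-06). MCM6 gave 10.77, 10.67 and 10.30 against 9.75, 9.71 and 9.72 (-0.85 ± 0.093, adjusted p = 1.05e-06), and GINS1 11.29, 11.35 and 11.22 against 10.66, 10.50 and 10.59 (-0.70 ± 0.064, adjusted p = 1.01e-07). In all 3 genes each IKKα shRNA array was lower than each control shRNA array. GINS4 (-0.67), GINS2 (-0.60), MCM4 (-0.52), MCM2 (-0.45), GINS3 (-0.44) and MCM3 (-0.32) also fell. MCM10 (0.10), CDC45 (-0.13), MCM7 (-0.08) and MCM5 (-0.07) did not pass, and among them are both genes that fell most with AZ628 in WiDr.

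In the other subcomplexes the falls were CDT1 (-0.51), GMNN (-0.39) and ORC1 (-0.37) in licensing, TOPBP1 (-0.38) and TIPIN (-0.13) at the fork, and POLD3 (-0.38), POLE2 (-0.33), POLA1 (-0.32), POLA2 (-0.26) and PRIM1 (-0.17) among the polymerases. RFC3 (-0.43) and PCNA (-0.43) fell in clamp loading, LIG1 (-0.45), DNA2 (-0.43), RNASEH2A (-0.35) and FEN1 (-0.25) in flap processing, and UHRF1 (-0.36), CHAF1B (-0.29) and E2F2 (-0.47) in the remaining groups. CDC6 gave 10.44, 10.55 and 10.43 with control shRNA and 10.49, 10.47 and 10.46 with IKKα shRNA, overlapping values with a difference of 0.00 ± 0.062 (adjusted p = 0.996), the smallest of the 48. The kinase CDC7, DBF4, TIMELESS, CLSPN, PRIM2, POLE, POLD1, RFC2, RFC4, RFC5, RPA3, EXO1, CHAF1A and E2F1 did not pass. ORC6 gave 10.18, 10.04 and 10.17 against 10.36, 10.31 and 10.50, with every IKKα shRNA array above the control shRNA arrays (0.26 ± 0.084, adjusted p = 0.0218). The fall of E2F2 turned to 0.09 without cross-hybridising probe sets (adjusted p = 0.507). Over all probe sets of a gene, changes ran from -0.75 to -0.13 for TIPIN and from -0.59 to 0.25 for RFC3. They ran from -0.29 to 0.21 for CHAF1B and from -0.44 to 0.10 for UHRF1. The call for ORC6 was lost without control shRNA replicate 2 (adjusted p = 0.0967), without IKKα shRNA replicate 3 (0.0984) or centred on housekeeping genes (0.281). The falls of TIPIN and CHAF1B were lost whichever of the 6 arrays was left out, and those of POLA2, PRIM1, FEN1 and POLE2 without some single arrays.

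Control shRNA differed from vehicle in some of these genes, about as often as over all genes. No call was made for 37 of the 48 genes and for 14109 of all 18132. Of the 48, 9 were higher with control shRNA (11.6% of all genes) and 2 lower (10.6%), PRIM1 (-0.17) and RPA3 (-0.21), with a median of 0.08 against -0.04 over all genes. The 9 were CDC6 (0.21), GMNN (0.16), MCM2 (0.15), MCM3 (0.25), MCM6 (0.42), GINS1 (0.24), GINS3 (0.31), CLSPN (0.41) and E2F8 (0.34), of which 5 belong to the helicase. MCM6 gave 10.15, 10.10 and 10.22 with vehicle and 10.77, 10.67 and 10.30 with control shRNA, without overlap but with control shRNA replicate 3 lower than the others. E2F8 gave 8.77, 8.22 and 8.46 with vehicle and 8.77, 8.74 and 8.95 with control shRNA, where the groups overlapped at 1 vehicle array. RFC4 differed least, with 11.16, 10.98 and 11.01 against 11.10, 11.07 and 11.01 (0.01, adjusted p = 0.917). The call for PRIM1 was lost whichever of the 6 arrays was left out, and that for RPA3 without control shRNA replicate 1 (adjusted p = 0.0681) or 3 (0.0526), so that 0 to 1 genes were lower. The count of higher genes ran from 4 to 10 as single replicates were left out, and was 4 without vehicle replicate 2 or without control shRNA replicate 2.

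Against vehicle, the same IKKα shRNA arrays were read with other control arrays. Here 27 of 48 genes fell (19.8% of all genes) and 3 rose (16.4%), with a median of -0.23 against -0.06 over all genes. The IKKα shRNA arrays lay wholly below vehicle for 29 genes (27.4% of all genes) and wholly above for 3 (20.2%). A set of 23 genes fell against both controls (13.4% of all genes did), comparisons that share the IKKα shRNA arrays. The same 23 also fell with AZ628 in both lines (3.97% of all genes fell in all 4 comparisons), of which the WiDr comparison shares its vehicle arrays with IKKα shRNA against vehicle. Since 46 of the 48 fell with AZ628 in both lines, this overlap says little about a shared response. With IKKα shRNA against vehicle, GINS4 (-0.64), E2F8 (-0.54) and GINS2 (-0.49) fell most. GINS4 gave 8.13, 7.91 and 7.96 with vehicle and 7.37, 7.30 and 7.42 with IKKα shRNA, and GINS2 9.14, 8.97 and 9.07 against 8.67, 8.46 and 8.61. The IKKα shRNA arrays lay below all vehicle arrays in both. MCM6 fell by 0.43, about as far under vehicle as control shRNA lay above it. The 3 that rose were CLSPN (0.35), ORC6 (0.34) and CDC6 (0.21). CLSPN gave 6.27, 6.20 and 6.29 with vehicle, 6.64, 6.56 and 6.78 with control shRNA and 6.56, 6.62 and 6.63 with IKKα shRNA. Both transduced groups lay above vehicle and overlapped each other. MCM7 differed least from vehicle, with 12.82, 12.80 and 12.79 against 12.86, 12.81 and 12.74, by 0.00 ± 0.064 (adjusted p = 0.99). Centred on housekeeping genes, none of the 3 rises passed, and CDC6 also missed the threshold without vehicle replicate 2 (adjusted p = 0.0521).

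The IKKα shRNA effect minus the AZ628 effect in WiDr was also tested, each with its own control arrays. Of 48 genes, 42 were called higher, thus lowered less or not at all under the shRNA (20.1% of all genes were called higher). None was called lower (22.3% of all genes). The median difference was 1.04, against 0.04 over all genes. It was widest for MCM10 (2.58 ± 0.12), CDC45 (2.32 ± 0.098), POLE2 (2.07 ± 0.14) and ORC6 (2.05 ± 0.12). MCM10 gave 8.75, 8.76 and 8.72 with control shRNA and 8.90, 8.70 and 8.93 with IKKα shRNA, and CDC45 10.03, 9.95 and 9.85 against 9.78, 9.73 and 9.93. In both genes the shRNA groups overlapped, far above the AZ628 arrays given for the helicase. The 6 genes that did not pass were GMNN (0.12), MCM5 (0.32), PRIM2 (-0.02), RPA3 (0.03), LIG1 (0.22) and E2F8 (0.32). GMNN changed by -0.51 with AZ628 and by -0.39 with IKKα shRNA, and E2F8 by -1.19 and -0.87. PRIM2, with the smallest difference, gave 8.17, 7.86 and 8.12 with control shRNA and 7.85, 7.86 and 8.02 with IKKα shRNA, overlapping values. Over the 48 genes the sizes of both changes correlated with r = 0.04 (Pearson) and rho = -0.03 (Spearman), as a description of gene values that share no arrays.

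With vehicle alone, HT29 and WiDr differed in 24 of the 48 genes, 11 higher in HT29 (16.9% of all genes) and 13 lower (15.3%), with a median of -0.03 against -0.01 over all genes. GMNN gave 10.89, 10.77 and 10.83 in WiDr and 11.53, 11.47 and 11.46 in HT29, without overlap (0.66 ± 0.054, adjusted p = 4.61e-08). GINS4 gave 8.13, 7.91 and 7.96 in WiDr and 7.36, 7.48 and 7.28 in HT29 (-0.63 ± 0.07), and GINS2 9.14, 8.97 and 9.07 against 9.66, 9.65 and 9.59 (0.57 ± 0.067). DBF4 (-0.52), POLD1 (-0.41) and PCNA (-0.40) were lower in HT29, and EXO1 (0.45) and E2F2 (0.41) higher, the last turning to -0.19 without cross-hybridising probe sets (adjusted p = 0.132). With single arrays left out, 8 to 11 genes were lower, 8 of them without WiDr vehicle replicate 1. Centred on housekeeping genes, 5 were higher and 17 lower. The lines thus differed in opposite directions within GINS. E2F8 differed least, with 8.77, 8.22 and 8.46 against 8.39, 8.62 and 8.42 (-0.01, adjusted p = 0.966).

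Other genes of replication, listed from textbook knowledge but also with earlier results of these data known, fell in part. Of 34 measured, 26 fell and 3 rose with AZ628 in WiDr (21.1% and 23.4% of all genes), with a median of -0.75, and 27 fell and 3 rose in HT29 (21% and 22.5%), with a median of -0.79. The largest falls in WiDr were DSCC1, a subunit of an alternative clamp loader (-1.78), POLD2, a subunit of the lagging-strand polymerase (-1.59), and WDHD1, which couples helicase and primase (-1.52). POLD4 (0.69 and 0.42) and RNASEH2C (0.48 and 0.39) rose in both lines. ORC4 (0.22) rose in WiDr, and ASF1A (0.31) rose in HT29. RPA1 and RPA2, partners of RPA3, fell by 0.37 and 0.87 in WiDr and by 0.53 and 0.82 in HT29. With IKKα shRNA against control shRNA 13 of the 34 fell (19% of all genes) and 1, POLE4 (0.46), rose (15.9%), and RPA2 fell most (-1.11).

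All 10 measured genes of nucleotide supply fell with AZ628 in both lines (21.1% and 21% of all genes; medians -1.03 and -1.07), led in WiDr by CAD, which starts pyrimidine synthesis (-2.38 and -1.88), DCTPP1, a nucleotide pyrophosphatase (-1.54 and -1.33), and RRM2, a subunit of ribonucleotide reductase (-1.51 and -1.69). With IKKα shRNA against control shRNA 6 of 10 fell (19% of all genes), DUT, which removes dUTP (-1.13), TYMS, which makes thymidylate (-0.91), and RRM1 (-0.65) most, while CAD (-0.04, adjusted p = 0.756) and RRM2 (0.08, adjusted p = 0.435) did not pass. Mitosis genes fell with AZ628 in 24 of 25 cases in WiDr (21.1% of all genes) and 23 of 25 in HT29 (21%; medians -0.54 and -0.67), and 15 of 25 fell with IKKα shRNA (19% of all genes, median -0.28).

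**Figure D5:**
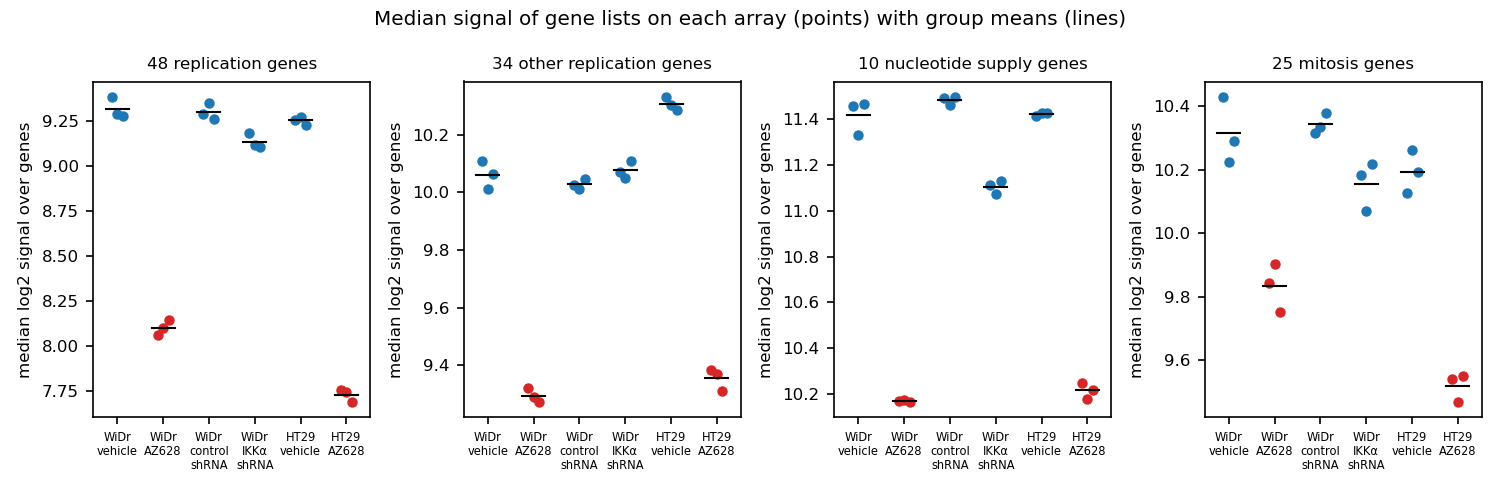
Median log2 signal on each array (points, blue without and red with AZ628) and group means (lines) of the 48 replication genes, 34 other replication genes, 10 nucleotide supply genes and 25 mitosis genes, each on its own axis. In all 4 lists the AZ628 arrays lie below all other arrays, and the IKKα shRNA arrays lie below the control shRNA arrays in all but the other replication genes.

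Among cell cycle and growth regulators, CCND1, which encodes cyclin D1, fell by 3.34 with AZ628 in WiDr and 2.77 in HT29. It differed by 0.09 with IKKα shRNA (adjusted p = 0.334). MYC, a transcription factor that promotes growth, fell by 3.98 and 3.14, and differed by -0.04 with IKKα shRNA (adjusted p = 0.759). Of 22 genes of E2F and RB control, 16 fell and 4 rose in WiDr (21.1% and 23.4% of all genes), and 15 fell and 4 rose in HT29 (21% and 22.5%), so the number that rose was no larger than over all genes. CDC25A, the phosphatase that activates CDK2, fell by 2.48 and 2.60, and CCNE2, a cyclin E, by 2.27 and 2.78. Among those that rose in both lines, CDKN1B, the p27 inhibitor of CDK2, rose by 0.92 and 1.05. LIN37 and RBL2, of the repressive complex of quiescent cells, rose by 0.39 and 0.50 in WiDr and by 0.45 and 0.39 in HT29. Other genes of that complex fell in WiDr and HT29, among them LIN9 by 0.84 and 0.60, LIN54 by 0.59 and 0.88, and E2F4 by 0.83 and 0.485. With IKKα shRNA against control shRNA 7 of the 22 fell (19% of all genes), LIN54 most (-1.07), and E2F7 (0.42) rose (15.9% of all genes).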

How the data were processed

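RNA of WiDr and HT29 cells was hybridised to 18 arrays, 3 in each of 6 groups taken from the sample labels. The values analysed are the authors' deposited log2 signals. The submitters' processing notes name RMA, limma and R 3.0.2, and per the labels 100 ng of total RNA was labelled per array. Of 49395 probe sets, 44994 carry 1 gene symbol in the platform annotation, 1832 several and 2569 none. Only the first kind was used, with the probe set of highest mean signal for each of 18132 genes. A model of 6 group means over all arrays was fitted with limma 3.58.1 in R 4.3.3 (12 residual and 4.49 prior degrees of freedom), and p-values were adjusted over all genes by the Benjamini-Hochberg method with a threshold of 0.05 for 8 comparisons. The fit was tested on simulated data. "Rose", "fell" and "passed" refer to this test.

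The 48 genes and the other gene lists were chosen with earlier results of these data known. All 48 genes are named. Values for single arrays were printed for the 3 largest and the smallest changes of a comparison, for genes that departed from the majority and for genes that differed between the lines. Other lists are given by counts and their largest or opposite members. CLSPN beside both controls, TIPIN, TIMELESS, PCNA, MCM5 and E2F1 were set out by array after their values were seen. Replicate numbers did not pair the arrays (correlations of deviations from the group means of -0.23 to 0.25). The number of arrays limits the precision. Averaging all probe sets per gene in place of the brightest, probe sets without the _x_ and _s_ marks of cross-hybridisation, quantile normalisation, centring on housekeeping genes, leaving out the dimmest genes, a trended and robust variance, array weights, a 2-fold threshold, fits of single comparisons and single arrays left out were tried as alternatives. Promoter windows came from RefSeq (GRCh38.p14); no genome was used.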

Additional observations from a re-analysis of the deposited data

Results flagged for a closer look

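The response to AZ628 differed between the lines in 11 of the 48 genes by the test of the difference itself (limma, effect in HT29 minus effect in WiDr, 3 arrays per group). The fall was larger in HT29 for MCM2 (-0.65, adjusted p = 1.56e-05), CLSPN (-0.58), PRIM1 (-0.57, adjusted p = 0.00018), E2F2 (-0.49), CDC6 (-0.46), UHRF1 (-0.45), PCNA (-0.44), CDT1 (-0.43), RFC5 (-0.38) and MCM3 (-0.35). It was larger in WiDr for MCM7 (0.45, adjusted p = 0.00335). The other probe set of CLSPN differed by 0.04, that of E2F2 by 0.34 and that of PCNA by 0.26. With AZ628 the CLSPN signals of both lines were near the fibroblast marker medians. Groups of 3 arrays were not tested for outlying arrays.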

How the results depend on the processing

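The falls with AZ628 kept their counts in both lines as single arrays were left out (46 in WiDr and 48 in HT29), with medians from -1.361 to -1.295 and from -1.457 to -1.394. The median was -1.066 in WiDr and -1.277 in HT29 with probe sets averaged per gene, and -1.185 and -1.256 centred on housekeeping genes. Of 33 genes with several probe sets, the changes with AZ628 spread over more than 1 log2 unit for 5 in WiDr and 10 in HT29. Without cross-hybridising probe sets 1 gene of 44, E2F2, was higher in HT29. At a 2-fold threshold no gene passed, lower or higher (0 and 0), in the line difference or in IKKα shRNA against either control. The same held for control shRNA against vehicle and for HT29 against WiDr. In the IKKα shRNA effect minus the AZ628 effect 25 of 48 passed as higher and 0 as lower. Over all 18132 genes 912 passed as higher and 1256 as lower. Centred on housekeeping genes, the line difference held 5 lower genes, IKKα shRNA 0 higher genes against either control with medians of -0.398 (control shRNA) and -0.402 (vehicle), control shRNA against vehicle 0 lower and 3 higher, HT29 against WiDr 5 higher with a median of -0.163, and the effect difference a median of 0.782 (0.828 with the mean of probe sets). Without cross-hybridising probe sets the median with IKKα shRNA against control shRNA was -0.188, and control shRNA against vehicle held 1 lower gene. Control shRNA against vehicle also gave 4 lower and 5 higher genes after quantile normalisation, 1 and 4 in a fit of its own groups, and 5 and 14 with array weights; HT29 against WiDr gave 8 lower in a fit of its own groups. E2F2 reversed without cross-hybridising probe sets, to 0.236 (HT29), 0.337 (line difference), 0.086 (IKKα shRNA against control shRNA) and -0.186 (HT29 against WiDr), PRIM2 to 0.548 in the effect difference, and MCM10 with the mean of probe sets to 0.157 for IKKα shRNA against vehicle. The cause was not tested.

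With single arrays left out, the line difference kept 10 to 11 lower and 1 higher genes (median -0.241 to -0.161). IKKα shRNA gave 23 to 25 lower and 0 to 1 higher against control shRNA (-0.301 to -0.268), and 21 to 27 lower and 2 to 3 higher against vehicle (-0.272 to -0.179). Control shRNA against vehicle gave 0 to 1 lower and 4 to 10 higher (0.038 to 0.136), 4, 5 and 4 higher without vehicle replicate 2, vehicle replicate 3 and control shRNA replicate 2. HT29 against WiDr gave 8 to 11 lower, 8 without WiDr vehicle replicate 1, and 9 to 13 higher (-0.073 to 0.011), and the effect difference 42 to 43 (1.004 to 1.082).

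Centring on housekeeping genes, a list that itself holds changed genes such as HPRT1 and TFRC, moved the median of all genes by 0.131 and 0.177 for AZ628 in WiDr and HT29, -0.125 and -0.174 for IKKα shRNA against control shRNA and vehicle, -0.137 for HT29 against WiDr and -0.256 for the effect difference. Calls over all genes, lower and higher, became 2626 and 5537 with AZ628 in WiDr (3830 and 4249 before), 2275 and 6591 in HT29 (3814 and 4085), 4565 and 1368 for IKKα shRNA against control shRNA (3443 and 2880), 8131 and 1487 against vehicle (3597 and 2976), 1653 and 1026 for control shRNA against vehicle (1924 and 2099), 4424 and 1552 for HT29 against WiDr (2766 and 3071), and 5970 and 1893 for the effect difference (4048 and 3640).

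The replicate block, used although the numbers share nothing but a label, gave 46 lower genes with AZ628 in WiDr, 48 in HT29, 10 lower and 1 higher in the line difference, 27 and 1 for IKKα shRNA against control shRNA, 26 and 3 against vehicle, 2 lower and 8 higher for control shRNA against vehicle, 13 lower and 12 higher for HT29 against WiDr, and 42 higher in the effect difference.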

Other observations

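CCAAT letters (CCAAT on either strand) were found in the promoter windows of 23 of the 41 replication genes (56.1%), in 42.1% of protein-coding genes and in 73.7% of the mitosis genes of the list. CHR-like letters (TTTGAA or TTTAAA on either strand) were found in 4 of the 41 (9.76%), in 24.7% of protein-coding genes and in 16 of 19 mitosis genes (84.2%). These are descriptions of short letter strings, and no binding was measured.

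MAD2L1, a spindle checkpoint protein, fell by 1.05 with AZ628 in WiDr and 1.23 in HT29, and CDK1, the mitotic kinase, by 0.83 and 0.90. CCNB2, a mitotic cyclin, differed by 0.01 and -0.04 and passed in neither line. With IKKα shRNA NUF2, a kinetochore protein (-0.80), and CCNA2, cyclin A2 (-0.79), fell most among the mitosis genes.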
